A study of Mus musculus with 12 samples.

Results

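Laminins, nidogens, perlecan and agrin form the laminin-bearing layer of the basement membrane, the thin matrix sheet around every muscle fibre, capillary and nerve sheath. The genes described here are Lama2, Lama4, Lama5, Lamb1, Lamb2, Lamc1, Nid1, Nid2, Hspg2 and Agrn, 10 of the 21936 genes listed in the files, chosen by their symbols to cover the laminin chains of muscle, vessels and regenerating fibres together with the proteins that tie laminin into the sheet. All 10 were listed above 0 in every library and all 10 passed the filter on low values. They were measured in polyadenylated RNA of skeletal muscle from C57BL/6N mice aged 3 months. The tested mice were PTRF knockouts (KO, whose disease state is given as muscular dystrophy), and the controls were wild type (WT, given as normal). PTRF is the older name of cavin 1, the coat protein of caveolae, encoded by Cavin1. The sources used here do not say whether the deletion was made in all cells or in some, and they do not tie the numbered samples to separate animals. The p-values therefore rest on a spread that may be purely technical.

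The labels give 12 samples, 3 per genotype in soleus and 3 per genotype in quadriceps. Every quadriceps sample held the same values as the soleus sample of its genotype and number, with a largest difference of 0 TPM, so 3 KO and 3 WT libraries were counted and the muscle they came from cannot be told apart. TPM gives a gene's length-corrected share of its library, and it keeps no record of sequencing depth, which is unknown. Cavin1 stood at 0.133 ± 0.134 TPM in KO libraries and 42.4 ± 2.63 TPM in WT libraries (SD, n = 3 each). The summed level of 10 genes of the mature muscle fibre ran from 39479 to 46809 TPM in KO libraries and from 36269 to 41806 TPM in WT libraries, with Myh7, the slow myosin heavy chain, at 2891 ± 604 TPM and 2193 ± 501 TPM. The mitochondrially encoded transcripts held 42.3 ± 3.33% of all TPM in KO libraries and 48.8 ± 5.05% in WT libraries. Because TPM is a share, the scale of a library moves every gene in it, and across the 11056 tested genes the log2 fold change had a median of 0.33 as deposited. Values are therefore also given after trimmed-mean rescaling, which sets the libraries to an equal typical gene ratio and moved that median to -0.02, and after quantile normalization, which gives all libraries the same distribution and moved it to -0.04.

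A laminin is a trimer of an alpha, a beta and a gamma chain. The trimers join into a network on the cell surface, where dystroglycan and integrins bind the alpha chain. Nidogens link the laminin network to that of type IV collagen, and perlecan and agrin are heparan sulphate proteoglycans that strengthen those links and bind dystroglycan. In adult muscle the alpha2 chain is the chain of the fibre's own basement membrane, and loss of the human gene LAMA2 causes a congenital muscular dystrophy. The alpha4 and alpha5 chains are found mainly around vessels and at the synapse.

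On the deposited scale 9 of the 10 genes were higher in KO libraries by limma with Benjamini-Hochberg adjustment over all 11056 genes, and none was lower, where 36.3% of all tested genes were higher and 2.92% lower, 39.2% in either direction. Lamb1 did not pass. Their median log2 fold change was 0.86, against 0.33 for all genes. After trimmed-mean rescaling 5 of the 10 were higher (Agrn, Lamc1, Nid1, Hspg2 and Lama4), where 13.8% of all genes were higher and 28.2% were called in either direction, and their median was 0.49. After quantile normalization 4 were higher (Agrn, Lamc1, Nid1 and Hspg2), where 12.4% of all genes were and 25.5% were called in either direction, with a median of 0.50. Agrn, Lamc1, Nid1 and Hspg2 were thus called higher on each of these 3 scales, while Lama2, Lama5, Lamb2 and Nid2 were called on the deposited scale alone of the 3. The summed level of the 10 genes was 179, 188 and 180 TPM in KO libraries 1, 2 and 3, against 98.1, 92.6 and 106 TPM in WT libraries 1, 2 and 3.

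**Figure D1:**
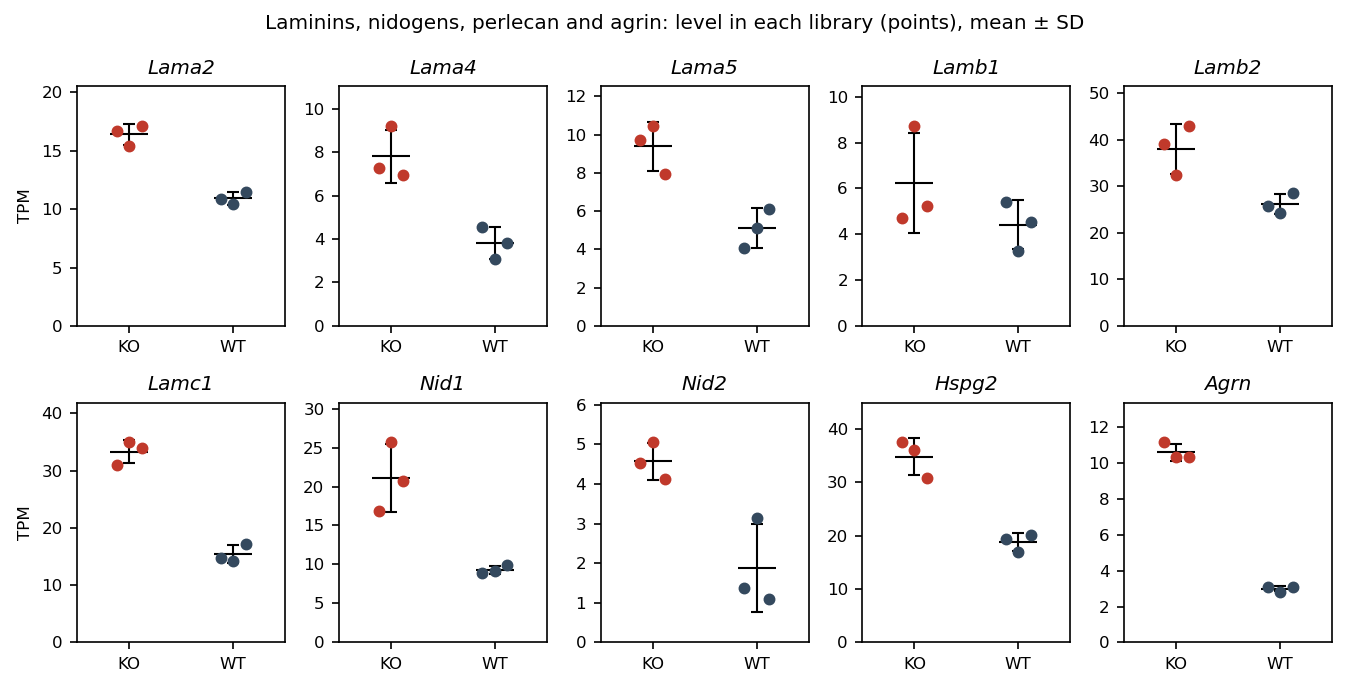
Level in TPM (vertical axes, starting at 0) of each of the 10 genes in 3 KO libraries (left in each panel) and 3 WT libraries (right). Points are libraries and bars are mean ± SD. The groups do not overlap in 9 panels and overlap for Lamb1, where KO libraries 1 and 3 lie among the WT libraries.

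The promoters of Agrn, Lama5 and Lama2 are shown because these genes were called on all 3 scales (Agrn) or on the deposited scale alone of the 3 (Lama5 and Lama2), and because their windows hold no base of a GENCODE exon. RefSeq's table for GRCm38.p6 matched 7 of the 10 genes with 8 windows. Lama4, Lamc1 and Nid2 had no entry. The windows are the 250 bases before each RefSeq start, on the coding strand, and capitals mark the GC box, GGGCGG on either strand, a sequence bound by SP family factors. They come from chr4:156197489-156197738 (Agrn), chr2:180225860-180226109 (Lama5) and chr10:27616943-27617192 (Lama2), all on the minus strand.
Agrn: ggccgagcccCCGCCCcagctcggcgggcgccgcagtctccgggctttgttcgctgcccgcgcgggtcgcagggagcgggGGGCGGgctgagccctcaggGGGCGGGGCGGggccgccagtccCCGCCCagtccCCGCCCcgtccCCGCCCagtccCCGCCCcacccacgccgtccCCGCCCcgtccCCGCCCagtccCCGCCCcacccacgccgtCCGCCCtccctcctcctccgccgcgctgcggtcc
Lama5: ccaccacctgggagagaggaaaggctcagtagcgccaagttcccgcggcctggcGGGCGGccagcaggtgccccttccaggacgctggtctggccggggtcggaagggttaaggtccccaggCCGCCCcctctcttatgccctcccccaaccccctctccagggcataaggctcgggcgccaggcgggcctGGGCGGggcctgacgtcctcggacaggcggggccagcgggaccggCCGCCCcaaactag
Lama2: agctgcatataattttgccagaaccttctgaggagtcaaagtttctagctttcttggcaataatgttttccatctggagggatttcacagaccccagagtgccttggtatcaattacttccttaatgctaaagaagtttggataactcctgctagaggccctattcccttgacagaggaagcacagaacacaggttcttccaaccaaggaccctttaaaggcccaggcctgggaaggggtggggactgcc
The Agrn window holds 12 GC boxes, counting overlapping ones, at 83.6% G and C. The Lama5 window holds 4 at 72.4%, and the Lama2 window holds none at 47.2%. On the minus strand the annotated Lama2 gene begins at 27619758, so its window lies inside the gene, before an internal start. The Agrn and Lama5 windows lie just outside their genes, so the Lama2 window is not like them in position. Of 32851 windows of the same length in the table, 32.7% hold at least 1 GC box, and their median share of G and C is 52.4%. Among the other matched genes, the Hspg2 window holds 5 GC boxes, that of Lamb1 holds 2, that of Nid1 holds 1 and that of Lamb2 holds none. A window of a second RefSeq start of Agrn holds 2. None of the 8 windows holds a TATA box (TATAAA, in 12.4% of all windows), an AP-1 site (TGANTCA, 6.75%) or the E-box CACGTG (6.02%), each searched on both strands. The CCAAT box, in 33.8% of all windows, is in those of Lamb1 and Nid1. These matches describe the letters in these windows.

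Among the alpha chains, Lama2 (ENSMUSG00000019899, chromosome 10, 26980036 to 27619758, minus strand in GRCm38, 65 exons in its longest transcript) was the most abundant. It stood at 16.7, 15.4 and 17.1 TPM in KO libraries 1, 2 and 3, against 10.9, 10.4 and 11.5 TPM in WT libraries 1, 2 and 3. All KO libraries lay above all WT libraries, and the spread within each group was small. On the log2(TPM + 1) scale Lama2 was higher in KO by 0.55 (SE 0.13, limma adjusted p = 0.0086). The same change was 0.17 (SE 0.09, adjusted p = 0.22) after trimmed-mean rescaling and 0.20 (adjusted p = 0.15) after quantile normalization. Of all tested genes, 25.6% had a larger change than Lama2 on the deposited scale. It also lost its call without both WT library 2 and KO library 1 (adjusted p = 0.067).

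Lama4 (ENSMUSG00000019846, chromosome 10, 38965515 to 39110188, plus strand), the alpha chain of endothelial basement membranes, stood at 7.26, 9.20 and 6.93 TPM in KO libraries, against 4.55, 3.10 and 3.83 TPM in WT libraries. KO library 2 was the highest, and the groups did not overlap. Its log2 fold change was 0.87 (SE 0.16, limma adjusted p = 0.0019). After trimmed-mean rescaling it was 0.52 (SE 0.17, adjusted p = 0.046), and after quantile normalization 0.46, which did not pass (adjusted p = 0.080).

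Lama5 (ENSMUSG00000015647, chromosome 2, 180176373 to 180225859, minus strand), the alpha chain of mature capillaries and of the synaptic basement membrane, stood at 9.74, 10.5 and 7.95 TPM in KO libraries, against 4.05, 5.14 and 6.13 TPM in WT libraries. The lowest KO library lay above the highest WT library. The log2 fold change was 0.77 (SE 0.17, limma adjusted p = 0.0043). After trimmed-mean rescaling it was 0.42 and did not pass (adjusted p = 0.066).

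Of the beta chains, Lamb2 (ENSMUSG00000052911, chromosome 9, 108479736 to 108490530, plus strand), the beta chain concentrated at the neuromuscular junction and also present in mature vessels and fibre sheaths, was the most abundant of all 10 genes. It stood at 39.0, 32.3 and 42.9 TPM in KO libraries, against 25.8, 24.4 and 28.6 TPM in WT libraries. The groups did not overlap, and KO library 2 was the lowest of the knockouts. The log2 fold change was 0.52 (SE 0.15, limma adjusted p = 0.021). This was the least stable of the 9 calls. It was lost after trimmed-mean rescaling (log2 fold change 0.12, adjusted p = 0.46), after quantile normalization (adjusted p = 0.17), without KO library 1 (adjusted p = 0.053), without KO library 3 (adjusted p = 0.103), without WT library 1 (adjusted p = 0.068), without WT library 2 (adjusted p = 0.087) and without both WT library 2 and KO library 1 (adjusted p = 0.147).

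Lamb1 (ENSMUSG00000002900, chromosome 12, 31265234 to 31329644, plus strand), the beta chain of embryonic and much of adult basement membrane, stood at 4.71, 8.72 and 5.25 TPM in KO libraries, against 5.43, 3.28 and 4.55 TPM in WT libraries. The groups overlapped: KO libraries 1 and 3 were among the WT values, and KO library 2 alone was above them. The log2 fold change was 0.40 (SE 0.22) and did not pass (limma adjusted p = 0.15). Without KO library 2 it was 0.16, after trimmed-mean rescaling 0.06, and after quantile normalization -0.01.

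Lamc1 (ENSMUSG00000026478, chromosome 1, 153218922 to 153332786, minus strand) encodes the gamma1 chain, which nearly all laminins of muscle share and which carries the nidogen binding site. It stood at 31.0, 34.9 and 34.0 TPM in KO libraries, against 14.8, 14.2 and 17.2 TPM in WT libraries. The KO libraries lay close together, far above the WT libraries. Lamc1 was 2.16-fold higher in KO, and its log2 fold change was 1.07 (SE 0.14, limma adjusted p = 0.00019), and 6.67% of all tested genes had a larger change. After trimmed-mean rescaling the change was 0.68 (SE 0.11, adjusted p = 0.0031). Over its 16 alternatives the adjusted p ran from 1.62e-05 to 0.0037.

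Nid1 (ENSMUSG00000005397, chromosome 13, 13437551 to 13512269, plus strand), the main nidogen of muscle, stood at 16.9, 25.6 and 20.8 TPM in KO libraries, against 8.87, 9.10 and 9.91 TPM in WT libraries. The WT values were tight and the KO values spread more widely, with library 2 highest and no overlap. The log2 fold change was 1.08 (SE 0.16, limma adjusted p = 0.00047), and 0.70 after trimmed-mean rescaling (adjusted p = 0.019).

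Nid2 (ENSMUSG00000021806, chromosome 14, 19751265 to 19811787, plus strand), the second nidogen, stood at 4.54, 5.05 and 4.12 TPM in KO libraries, against 1.38, 3.14 and 1.10 TPM in WT libraries. WT library 2 was well above the other WT libraries and still below every KO library. The log2 fold change was 1.02 (SE 0.22, limma adjusted p = 0.0044). It kept a size of 0.71 after trimmed-mean rescaling but did not pass there (adjusted p = 0.085). Its gene body overlaps Rtraf, a protein-coding gene on the opposite strand, and whether the counting used strand is not given in the sources used here, so reads of the shared bases cannot be assigned with certainty.

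Hspg2 (ENSMUSG00000028763, chromosome 4, 137468769 to 137570630, plus strand, 97 exons) encodes perlecan, the main heparan sulphate proteoglycan of vessel and fibre basement membranes. It stood at 37.4, 35.9 and 30.8 TPM in KO libraries, against 19.3, 16.96 and 20.1 TPM in WT libraries. The groups were far apart. The log2 fold change was 0.85 (SE 0.15, limma adjusted p = 0.0010), and 0.46 after trimmed-mean rescaling (SE 0.10, adjusted p = 0.013).

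Agrn (ENSMUSG00000041936, chromosome 4, 156165290 to 156197488, minus strand) encodes agrin, whose neuronal form clusters acetylcholine receptors at the synapse and whose other forms occur in muscle and vessel basement membranes. It stood at 11.2, 10.3 and 10.4 TPM in KO libraries, against 3.09, 2.82 and 3.11 TPM in WT libraries. The values within each group were nearly equal, and the groups were the farthest apart of the 10 genes in relation to their spread. Agrn was 3.53-fold higher in KO, and its log2 fold change was 1.54 (SE 0.13, limma adjusted p = 1.06e-05), and 2.43% of all tested genes had a larger change. After trimmed-mean rescaling the change was 1.19 (SE 0.10, adjusted p = 0.00015), and over its 16 alternatives it ran from 0.96 to 1.79 with the adjusted p at most 0.0010. The gene value sums the forms of agrin, which were not analysed separately here.

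**Figure D2:**
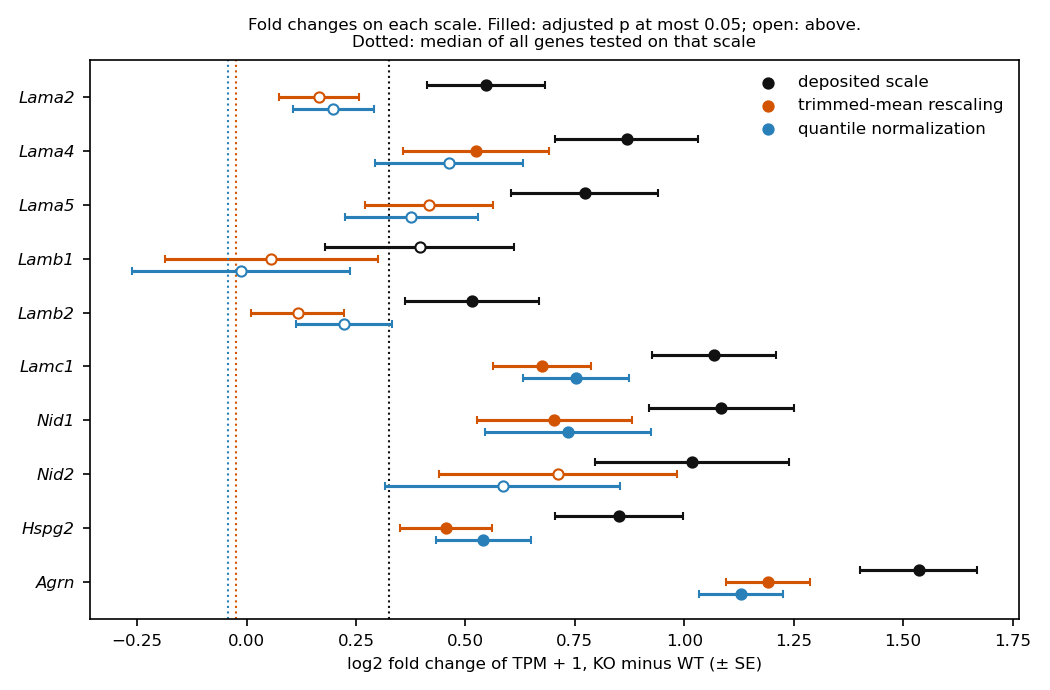
Log2 fold change of TPM + 1, KO minus WT, with its standard error (horizontal axis), for each gene as deposited, rescaled by the trimmed mean, and quantile normalized. Filled points have an adjusted p of at most 0.05, and dotted lines are the medians of all genes tested, at 0.33, -0.02 and -0.04. Agrn, Lamc1, Nid1 and Hspg2 are filled on all 3 scales, and Lamb1 is open on all 3.

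Every KO library lay above every WT library for 9 of the 10 genes, which held for 48.7% of all tested genes. The libraries of a group did not move together for all chains. KO library 2 held the highest value of its group for 6 genes (Lama4, Lama5, Lamb1, Lamc1, Nid1 and Nid2) and the lowest for 3 (Lama2, Lamb2 and Agrn). WT library 2 held the lowest value of its group for 7 genes and the highest for Nid2 alone. Nearly all of these genes have long transcripts: the longest annotated transcript of 9 of them is in the longest of 5 equal bins of the tested genes by length. That bin had a median log2 fold change of 0.33, and the shortest bin one of 0.32.

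The order of levels was similar in both groups. In KO libraries Lamb2 (38.1 ± 5.37 TPM), Hspg2 (34.7 ± 3.47 TPM) and Lamc1 (33.3 ± 2.04 TPM) led and their values overlapped, followed by Nid1 (21.1 ± 4.38 TPM), which overlapped Lama2, and by Agrn (10.6 ± 0.468 TPM, SD, n = 3 each). In WT libraries Lamb2 (26.2 ± 2.16 TPM) stood apart from Hspg2 (18.8 ± 1.65 TPM), which overlapped Lamc1 (15.4 ± 1.57 TPM). Agrn was at rank 6 in KO libraries and at rank 9 in WT libraries (3.01 ± 0.162 TPM). Nid2 was the lowest in both, at 4.57 ± 0.465 TPM in KO libraries and 1.87 ± 1.10 TPM in WT libraries. At the lower end neighbours overlapped: Agrn, Lama5, Lama4, Lamb1 and Nid2 in KO libraries, and Lama5, Lamb1, Lama4, Agrn and Nid2 in WT libraries, each with the next.

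A ratio between chains within a library does not depend on the scale of that library, and 7 ratios were compared by an exact permutation test over the 6 libraries, which cannot go under 0.1. The ratio of Agrn to Hspg2, the proteoglycan pair, was 0.298, 0.287 and 0.336 in KO libraries, against 0.160, 0.166 and 0.155 in WT libraries. These groups did not overlap, and the difference of the log2 ratio was 0.94 ± 0.07 (SE; exact permutation test, two-sided p = 0.1, adjusted p = 0.525 over the 7 ratios). It was the single ratio of the 7 whose groups did not overlap. The ratio of Lama4 to Lama2, the vascular against the fibre alpha chain, was 0.434, 0.597 and 0.405 in KO libraries, against 0.418, 0.297 and 0.334 in WT libraries (exact p = 0.2). The groups met, since KO library 3 lay below WT library 1. For Lamb1 to Lamb2 the mean ratio was 0.171 ± 0.086 in KO libraries and 0.168 ± 0.039 in WT libraries (SD, n = 3 each, exact p = 0.8), with KO library 2 at 0.270 and the other KO libraries at 0.121 and 0.122. The remaining ratios, Lama5 to Lama2, Lama5 to Lama4, Nid2 to Nid1 and Hspg2 to Lamc1, had exact p-values between 0.3 and 0.8.

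Sums over the measured chains, chosen after the values were seen and given with no test, show how the parts of a trimer stood to each other. The alpha chains (Lama2, Lama4 and Lama5) summed to 33.7, 35.1 and 32.0 TPM in KO libraries, against 19.5, 18.6 and 21.4 TPM in WT libraries. The beta chains (Lamb1 and Lamb2) summed to 43.7, 41.1 and 48.2 TPM in KO libraries, against 31.2, 27.6 and 33.1 TPM in WT libraries. Beta transcripts therefore outnumbered alpha transcripts in each library. The ratio of Lamc1 to the beta sum was 0.709, 0.850 and 0.705 in KO libraries, against 0.473, 0.515 and 0.519 in WT libraries, so gamma1 transcripts were closer to the number of beta transcripts in the KO libraries. The ratio of the alpha sum to Lamc1 was 1.09, 1.00 and 0.941 in KO libraries, against 1.32, 1.31 and 1.25 in WT libraries. Lama2 made up 49.6%, 44.0% and 53.51% of the alpha sum in KO libraries, against 55.8%, 55.8% and 53.52% in WT libraries, so each KO value lay below each WT value, with KO library 3 and WT library 3 almost equal.

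**Figure D3:**
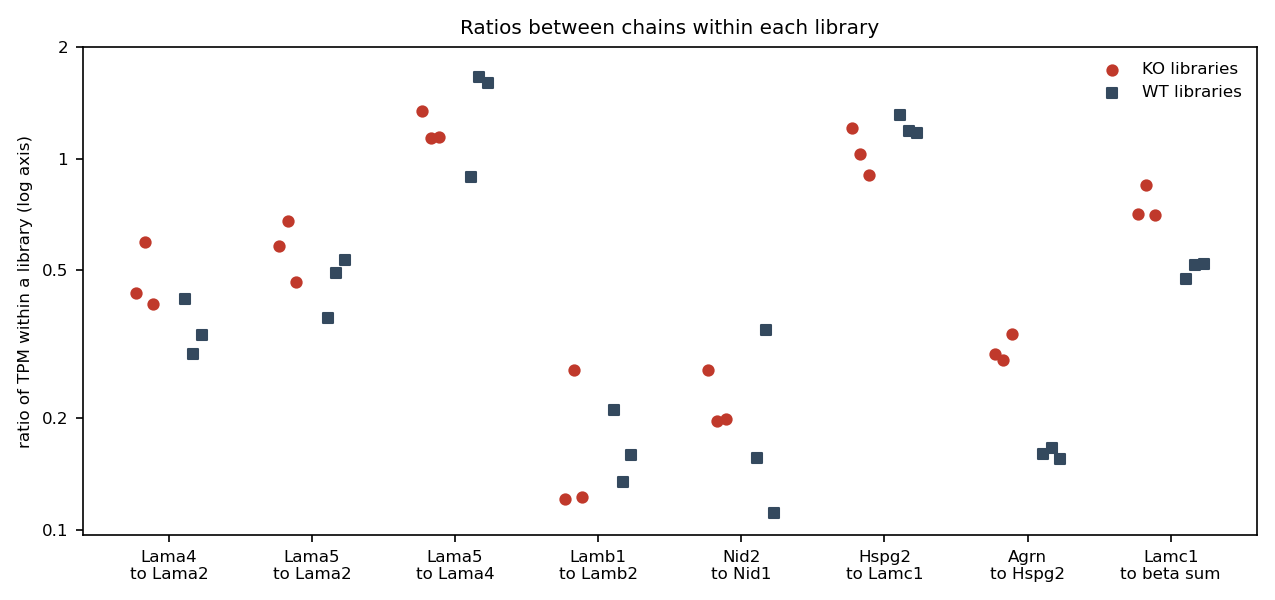
Ratio of TPM between chains within each library (vertical log axis) for 7 pairs and for Lamc1 against the sum of Lamb1 and Lamb2, with KO libraries as circles on the left of each pair and WT libraries as squares on the right. The groups are apart for Agrn to Hspg2, at 0.287 to 0.336 in KO and 0.155 to 0.166 in WT, and for Lamc1 to the beta sum, and they overlap for the other 6.

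Of the laminin chains outside the set, Lama1 was listed at 0 in all KO libraries and at most 0.00454 TPM in a WT library, and Lama3 and Lamc3 were under 0.3 TPM in every library, so these 3 were not tested. Lamb3, the beta chain of epithelial laminin, stood at 15.1, 16.3 and 9.42 TPM in KO libraries, against 9.12, 8.74 and 7.20 TPM in WT libraries. The groups did not overlap, and Lamb3 lay above Lamb1 in every library. Its log2 fold change was 0.62 (SE 0.20, limma adjusted p = 0.028) as deposited and 0.24 after trimmed-mean rescaling, where it did not pass (adjusted p = 0.45). The call was also lost in at least 1 of the fits that left out a library.

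Collagens of the basement membrane and of the adjoining reticular layer were all called higher where tested. Of 11 genes 8 were tested and 8 were higher (median 1.15 on the log2 scale), with 7 of 8 higher after trimmed-mean rescaling and 5 of 8 after quantile normalization, where Col4a5, Col6a1 and Col15a1 did not pass. Among all tested genes 36.3% were higher as deposited, 13.8% after trimmed-mean rescaling and 12.4% after quantile normalization. Leaving out each library in turn gave 6 to 8. Col4a5 and Col18a1 were under 1 TPM in all WT libraries and were tested through the KO libraries alone. Col18a1, the source of endostatin, stood at 6.83, 7.50 and 6.33 TPM in KO libraries, against 0.945, 0.909 and 0.954 TPM in WT libraries (log2 fold change 2.02, limma adjusted p = 2.46e-06). Col6a3, a chain of type VI collagen, had a log2 fold change of 1.68. Col4a1, a chain of the collagen network that nidogen ties to laminin, was at 40.4 ± 4.06 TPM in KO libraries and 19.6 ± 0.955 TPM in WT libraries (log2 fold change 1.01).

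Of the other basement membrane glycoproteins, 12 of 14 tested genes were higher and none lower (9 higher and 1 lower of 13 after trimmed-mean rescaling), with a median of 1.00. The shares of all tested genes were 36.3% higher and 2.92% lower as deposited, and 13.8% and 14.4% after rescaling. Frem2, among the 12, was under 1 TPM in all WT libraries, was tested through the KO libraries alone and did not pass the filter after rescaling. Mmrn2, an endothelial matrix protein, was at 14.4 ± 1.27 TPM in KO libraries and 3.69 ± 0.231 TPM in WT libraries. Ntn1, a netrin with a laminin-like domain, was at 6.18 ± 0.895 TPM in KO libraries and 1.67 ± 0.051 TPM in WT libraries. Smoc2, a SPARC-related protein, was at 28.0 ± 3.76 TPM in KO libraries and 9.38 ± 1.47 TPM in WT libraries. Egflam (pikachurin, a dystroglycan ligand), at 3.84 ± 0.961 TPM in KO libraries and 4.81 ± 0.488 TPM in WT libraries, did not pass on the deposited scale and was the gene called lower after rescaling.

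Laminin receptors were called in both directions. Of 12 tested genes 8 were higher and 1 lower (6 and 1 after trimmed-mean rescaling), with a median of 0.74. Beside this, 36.3% of all tested genes were higher and 2.92% lower as deposited, and 13.8% and 14.4% after rescaling. Sdc1, among the 8, was under 1 TPM in all WT libraries and was tested through the KO libraries alone. Itgb4 and Itga3 would also not have passed the filter without their KO libraries. In WT libraries 1, 2 and 3 Itgb4 stood at 0.755, 0.772 and 1.32 TPM, and Itga3 at 0.907, 1.09 and 0.939 TPM. Itgb4, the partner of the laminin-binding integrin alpha6, had a log2 fold change of 1.35 (3.93 ± 0.092 TPM in KO libraries, 0.948 ± 0.320 TPM in WT libraries). Bcam, a receptor for the alpha5 chain, stood at 70.4, 53.3 and 67.2 TPM in KO libraries, against 26.5, 21.9 and 33.4 TPM in WT libraries. Itga3, the alpha3 integrin, had a log2 fold change of 0.93. Itga7, the main laminin-binding integrin of muscle fibres, was at 64.9, 31.1 and 47.3 TPM in KO libraries, against 20.2, 22.1 and 23.3 TPM in WT libraries, and was called higher on both scales (log2 fold change 1.03 and 0.64). Dag1, which encodes dystroglycan, was at 57.4 ± 17.2 TPM in KO libraries and 45.7 ± 1.21 TPM in WT libraries and did not pass (limma adjusted p = 0.27). KO library 2 was the lowest of the knockouts for both, as for Lama2 and Lamb2. The 1 gene that was lower was Sdc4, the heparan sulphate proteoglycan syndecan 4, at 25.8 ± 1.36 TPM in KO libraries and 38.03 ± 4.19 TPM in WT libraries. Itga7, Dag1 and Sdc4 were chosen for mention after their values were seen.

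Few of the enzymes that build the sugar chain by which dystroglycan holds laminin, agrin and perlecan were called. Of 17 tested genes 4 were higher, Dpm2, Pomt1, Dpm3 and Pomt2, and none lower, with a median of 0.24, below that of all genes. Over all tested genes 36.3% were higher and 2.92% lower as deposited, and 13.8% and 14.4% after trimmed-mean rescaling. After trimmed-mean rescaling none was higher and 1 was lower, and leaving out each library in turn gave 0 to 5 called genes. Dpm2, a subunit that stabilises the dolichol phosphate mannose synthase, was at 12.4 ± 0.632 TPM in KO libraries and 8.11 ± 1.70 TPM in WT libraries. In the list for heparan sulphate synthesis and trimming, 11 of 16 tested genes were higher and none lower (3 and 3 after trimmed-mean rescaling), and leaving out each library in turn gave 6 to 10 called genes. Quantile normalization gave 3 higher and 1 lower, where 12.4% of all genes were higher and 13.1% lower. The counts after trimmed-mean rescaling were near the shares of all genes. The 3 with the smallest adjusted p were Hs3st1, a sulphotransferase tested through the KO libraries alone (log2 fold change 1.49), and the extracellular sulphatases Sulf1 (1.38) and Sulf2 (0.98).

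Agrin's partners at the synapse were called in both directions. Of 7 tested genes 2 were higher, 1 was lower and 4 did not pass, with a median of 0.33, as for all genes. The share of all tested genes called higher was 36.3%, and the share called lower 2.92%. After trimmed-mean rescaling 1 was higher, Chrna1, and 2 were lower, Colq and the receptor subunit gene Chrne. On that scale 13.8% of all genes were higher and 14.4% lower. The receptor gene Lrp4 was at 3.48, 1.91 and 1.94 TPM in KO libraries, against 1.74, 1.67 and 1.81 TPM in WT libraries (limma adjusted p = 0.18), and the kinase gene Musk at 10.3 ± 3.50 TPM in KO libraries and 7.77 ± 0.873 TPM in WT libraries (adjusted p = 0.22). Chrna1, the alpha subunit of the acetylcholine receptor, was at 12.2 ± 0.339 TPM in KO libraries and 7.05 ± 1.05 TPM in WT libraries (log2 fold change 0.72), and Dok7, an activator of MuSK, at 12.1 ± 4.91 TPM in KO libraries and 5.48 ± 0.750 TPM in WT libraries (0.95, not called after rescaling). Colq, the collagen tail that anchors acetylcholinesterase to perlecan, was lower on both scales, at 3.26, 5.98 and 3.96 TPM in KO libraries, against 8.02, 6.90 and 11.1 TPM in WT libraries (log2 fold change -0.85, limma adjusted p = 0.0086).

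**Figure D4:**
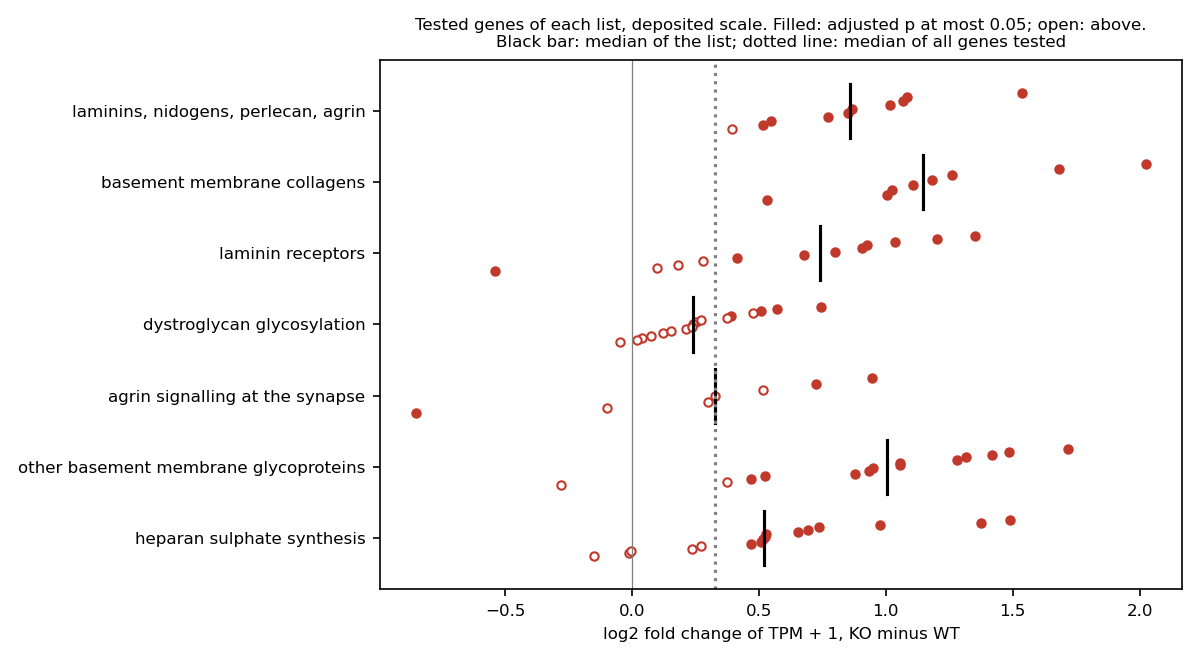
Log2 fold change of TPM + 1, KO minus WT (horizontal axis), of each tested gene on the deposited scale, by list. Filled points have an adjusted p of at most 0.05, black bars are list medians and the dotted line is the median of all tested genes, 0.33. The medians of the 10 genes (0.86), of the collagens (1.15) and of the other glycoproteins (1.00) lie to the right of it. So do those of the laminin receptors (0.74) and of heparan sulphate synthesis (0.52). The median of the synapse genes (0.33) lies at the line, and that of the dystroglycan glycosylation genes (0.24) to the left. The 2 tested genes of the other laminin chains are not shown.

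In whole muscle, a change in the number of cells of a type and a change in RNA per cell cannot be told apart. The marker lists are given with their counts as deposited, where 36.3% of all genes were higher and 2.92% lower. Counts after trimmed-mean rescaling are also given, where 13.8% of all genes were higher and 14.4% lower. Endothelial genes were higher for 9 of 10 and lower for 1 (8 and 1 after rescaling), with a summed level of 292 to 341 TPM in KO libraries and 154 to 179 TPM in WT libraries. Fibroblast and fibro-adipogenic progenitor genes were higher for 9 of 9 tested (8 after rescaling), at 826 to 860 TPM in KO libraries and 287 to 317 TPM in WT libraries. Tcf21, on that list, was not tested. It was at 0 in all WT libraries and in KO libraries 1 and 3, and at 0.0417 TPM in KO library 2. Macrophage genes were higher for 10 of 10 (10 after rescaling) and summed to 119 to 165 TPM in KO libraries and 19.9 to 25.4 TPM in WT libraries. Adgre1, among the 10, was under 1 TPM in all WT libraries and was tested through the KO libraries alone. Satellite cell and regenerating fibre genes were higher for 4 of 6 tested (3 after rescaling), at 32.2 to 60.2 TPM in KO libraries and 11.4 to 22.2 TPM in WT libraries. Pericyte and smooth muscle genes were higher for 3 of 9 tested, near the share of all genes, and for 1 of 9 after rescaling, where their median log2 fold change was -0.10. They summed to 243 to 254 TPM in KO libraries and 198 to 210 TPM in WT libraries. None of 5 tested Schwann cell genes, 9 adipocyte genes or 10 mature fibre genes was called on the deposited scale (2 Schwann cell and 2 fibre genes were lower after rescaling), with sums that overlapped between the groups for Schwann cells (52.7 to 69.7 and 44.9 to 56.6 TPM), adipocytes (611 to 694 and 484 to 628 TPM) and fibres. Tendon cell genes were higher for 2 and lower for 1 of 6 tested (2 and 1 after rescaling), at 143 to 213 and 54.2 to 87.8 TPM. Their median log2 fold change was -0.03 as deposited and -0.39 after rescaling, so the higher sum does not describe the list as a whole. The part of these cells in the levels of the laminin, nidogen and proteoglycan genes was not tested.

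By correlation of log2(TPM + 1) over the 6 libraries, which share their scale and the difference between genotypes, the tested genes most like Lama2 were Inf2, Oas1a, Dennd4a, Lrp1 and Ralb, with Pearson r from 0.9987 to 0.9995. Those most like Lamb1 were Gask1b, Adam19, Irs1, Fkbpl and Aplnr, with r from 0.967 to 0.980. These values describe 6 libraries and carry no test.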

How the data were processed

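Polyadenylated RNA was isolated with TRIzol and made into libraries with a NEBNext Ultra kit, per the labels' protocols. The submitters' processing notes list STAR 2.5.3a, kallisto 0.43.0, GRCm38 and mm10, and do not say which step used which. The deposited values were read as TPM from the values alone, since they are fractional and sum to 843194 to 872482 per library. TPM keeps no depth, so no counting interval is given. Genes absent from a file were set to 0. Positions come from GENCODE release M21 (GRCm38), which held 99.5% of the 21936 identifiers.

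A gene entered the test if 3 or more libraries reached 1 TPM. The log2(TPM + 1) values were fitted by limma 3.58.1 (R 4.3.3) with an intensity trend, two-sided, Benjamini-Hochberg adjustment over all genes at 0.05 and 4 residual degrees of freedom. Fold changes on this scale understate those of low genes. The fit was tested on simulated data with as many genes raised as lowered and no difference in scale between libraries. That simulation did not cover a shift of the median of all genes such as the one found here. The libraries are 3 KO and 3 WT. The trimmed-mean rescaling left out 30% of ratios and 5% of levels at each end. Alternatives changed the scale, the filter, the pseudocount, the trend, a block for replicate number and the libraries included. Tables were made in Python 3.11.15 (pandas 2.3.3, numpy 2.4.6) and plots in matplotlib 3.10.9.

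The members, lists and tests were chosen with earlier results of these data known. Named were all 10 members, Cavin1, and from each list the 3 passing genes with the smallest adjusted p, or the gene with the highest mean where none passed. Genes named beyond that were chosen after their values were seen: Lama1, Lama3 and Lamc3 to complete the laminin chains, Pomt2, Chrne and Egflam as single calls, Col4a5, Sdc1, Frem2, Adgre1 and Tcf21 for their low WT levels, Col6a1 and Col15a1 for lost calls, and Lrp4, Musk, Itga7, Dag1, Sdc4 and Myh7 for their roles. Some genes that this rule names are not reported here.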

Additional observations from a re-analysis of the deposited data

How the results depend on the processing

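Of the 156 values of the 10 genes under the alternatives, 140 kept their direction and their side of the threshold, and 15 kept their direction but no longer passed, all of them of Lama2, Lama4, Lama5, Nid2 or Lamb2. The remaining value was the log2 fold change of Lamb1, which was -0.013 after quantile normalization (limma adjusted p = 0.98). Agrn, Lamc1, Nid1 and Hspg2 passed under each of their 16 alternatives. The number of the 10 genes called was 4 after quantile normalization and 5 after trimmed-mean rescaling, against 9 on the deposited scale, and 7 without both WT library 2 and KO library 1. Of all tested genes 25.5% were called after quantile normalization, 28.2% after trimmed-mean rescaling and 39.2% on the deposited scale. On the deposited scale 4339 of 11056 tested genes were called. After quantile normalization 2823 of 11056 were called (48.6% of them higher), and after trimmed-mean rescaling 3098 of 10988 (48.9% higher). With the 10 TPM filter, which tested fewer genes, 1839 of 4887 were called. Without both WT library 2 and KO library 1 there were 1886 of 10453, and on a scale over nuclear genes 3627 of 12132 (78.6% higher). The number of called genes over the other lists, 49, was 32 after quantile normalization and 26 without both WT library 2 and KO library 1. It was 22 with the 10 TPM filter, which tested fewer genes. Leaving out each library in turn gave 8 to 9 of the 10 genes, 2648 to 4458 of all genes and 34 to 48 list genes. Over all genes, 2648 of 10569 tested were called without KO library 1. There were 2724 of 10571 without KO library 3 and 2784 of 11005 without WT library 2. With the 10 TPM filter Lama4, Lama5, Lamb1 and Nid2 were not tested. The difference of the log2 ratio of Agrn to Hspg2, 0.94, was 0.68 with 1 TPM added to both and 0.87 to 0.98 leaving out each library. After quantile normalization it was 0.59. That value was also computed with 1 TPM added, so it compares with 0.68 and not with 0.94. The cause of the remaining differences between settings was not tested.

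With the replicate number as a block, 9 of the 10 genes, 4373 of all 11056 tested genes and 50 list genes were called. The deviations of same-numbered libraries from their group means correlated at 0.03, -0.01 and 0.04, so the numbers are not known to pair the samples. Within replicate numbers, sign-flip tests of the 7 ratios gave exact p-values of 0.25 to 1, where 3 pairs cannot go under 0.25. Depth is unknown, and low genes such as Nid2 in WT libraries carry an uncertainty that TPM does not show.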
